A study of Macaca mulatta with 20 samples.

Results

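The comparison described here sets corpora lutea of rhesus macaques collected on luteal day 18, after 9 days of human chorionic gonadotropin (hCG), against corpora lutea collected on luteal day 15, after 6 days of hCG. It takes 8 of the 20 arrays of the series, 4 per day, chosen by their labels alone: hCG day 18 replicates 1 to 4 and hCG day 15 replicates 1 to 4. Females received hCG into muscle from luteal day 9, with 2 injections per day and doses that climbed in steps from 15 to 2880 IU, a regime that imitates the hormone of early pregnancy. The other 12 arrays are 4 of untreated corpora lutea on luteal day 10, 4 of hCG day 10 (1 day of hormone) and 4 of hCG day 12 (3 days), and they enter the fit that estimates the spread. Luteal day, days of hormone and dose went up together between the groups, so their parts in any difference cannot be told apart. Whether replicates are different animals is not stated in the labels, and the p-values then measure only the spread between these samples.

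After ovulation the emptied follicle becomes the corpus luteum, a temporary gland that secretes progesterone. In primates it regresses at the end of the cycle unless chorionic gonadotropin from the implanting embryo acts on the luteinizing hormone receptor of its steroidogenic cells. Macrophages and other leukocytes live among the steroidogenic, endothelial and stromal cells, and macrophages carry complement C1q, the receptor CSF1R and major histocompatibility complex (MHC) class II molecules. CD74, the invariant chain, escorts class II molecules until a peptide is loaded. The respiratory chain of mitochondria passes electrons through complexes I to IV, and the gradient it builds drives ATP synthase. Mitochondria also hold the first enzyme of steroid synthesis and its electron donors, adrenodoxin (FDX1) and adrenodoxin reductase (FDXR).

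Signals below are the deposited array intensities, in arbitrary units, in the order of replicates 1 to 4. Differences are log2 changes of the signal + 16, hCG day 18 minus hCG day 15, with a standard error (SE) or a 95% interval from limma. Signs of array and RNA quality overlapped between the days. The median signal averaged 42.1 on hCG day 18 and 39.6 on hCG day 15 (two-sided exact permutation test, p = 0.171, smallest possible p 0.0286). The 3-prime minus 5-prime log2 signal of actin, which climbs as RNA breaks down, lay between 0.52 and 0.78 on hCG day 18 and at 1.07, 1.14, 0.56 and 0.60 on hCG day 15 (two-sided exact permutation test, p = 0.371), so hCG day 15 replicates 1 and 2 were the highest. Its part in the values below was not tested. Pairs of arrays correlated at 0.970 to 0.979 within hCG day 18, at 0.969 to 0.973 within hCG day 15 and at 0.966 to 0.982 between the days. On the second principal component, with 14.2% of the variance over 20 arrays, hCG day 18 arrays lay between -51.0 and -41.1 and hCG day 15 arrays between -32.7 and -1.01. One array stood apart: hCG day 15 replicate 2 lay at -50.2 on the third component, where the other 7 arrays lay between 0.15 and 20.9. Of 155 gene values described here and followed through the removal of each array, 5 moved by over 1.5 times or turned without that array, 13 without hCG day 18 replicate 1, and 26 without at least 1 of the 8 arrays. Several of these are given with and without the array. The measured markers of luteal cells were bright on both days. The first enzyme of steroid synthesis (CYP11A1), the luteinizing hormone receptor (LHCGR) and SCARB1 had no probe set with that single symbol. STAR, the protein that brings cholesterol into mitochondria, had signals of 15298, 18683, 16951 and 18617 on hCG day 18 and of 15174, 14854, 19233 and 13361 on hCG day 15. Endothelial PECAM1 lay between 1573 and 2202 over the 8 arrays, and CD68 of macrophages between 530.7 and 1129.6. Epithelial EPCAM and CDH1 and the B cell markers MS4A1 and CD79A did not pass 23.3 on any of the 8 arrays.

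No single gene separated the days at the level of the whole array. Of 52707 probe sets, 0 passed an adjusted p of 0.05 in limma, and the smallest adjusted p was 0.271. At an unadjusted p under 0.05 there were 3688 probe sets (7%), of which 2170 (4.12%) were higher and 1518 (2.88%) lower on hCG day 18. That split turned with the scaling, to 1716 higher and 1999 lower after quantile normalisation and to 1213 higher and 2286 lower after median-centring. Median-centring lowered the change of every gene by the same amount, and with it the median over all genes. In 1936 probe sets (3.67%) the 4 arrays of one day all lay on one side of the 4 arrays of the other, 1070 (2.03%) higher and 866 (1.64%) lower (809 and 1103 after quantile normalisation, 543 and 1522 after median-centring). With 1 probe set per gene, 8.45% of 14132 genes had an unadjusted p under 0.05 (4.05% higher, 4.4% lower) and 4.32% did not overlap (1.73% higher, 2.59% lower). These shares are the background for every count below. The median change over all genes was 0.00 (SD over genes 0.26), and 7083 genes lay above 0 and 7049 below. Since no gene passed, the changes below are described by their values, and a group of genes by how many of its members lay on each side.

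The largest difference with arrays that did not overlap belonged to haptoglobin (HP), the plasma protein that binds free haemoglobin. HP had signals of 5934, 6695, 5409 and 5409.6 on hCG day 18, against 1407, 547, 171 and 1245 on hCG day 15. The 4 day 18 arrays lay close together and all above the highest day 15 array, while the day 15 arrays were widely spread. The log2 change was 3.15 ± 0.72 (SE; 95% interval 1.65 to 4.65), 8.88-fold on the scale of the signal + 16, with an unadjusted p of 0.000322 and an adjusted p of 0.322 in limma. Leaving out each array in turn gave changes between 2.54 and 3.52, the lowest without hCG day 15 replicate 3, whose signal was the lowest of the 8. Earlier in the series HP averaged 69.2 ± 29.0 on untreated day 10, 224 ± 243 on hCG day 10 and 366 ± 354 on hCG day 12 (SD, 4 arrays each). Against untreated day 10, HP rose by 6.17 on hCG day 18 (limma adjusted p = 4.68e-05) and by 3.02 on hCG day 15 (adjusted p = 0.042). In those tests, which share the untreated arrays, 3.9% of probe sets passed on hCG day 18 and 1.29% on hCG day 15.

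Among genes of a mean signal of at least 50 (4.75% of which did not overlap, 1.76% higher and 2.99% lower), the next higher ones included matrix, receptor and immune genes. Osteomodulin (OMD), a leucine-rich proteoglycan of the matrix, had signals of 377, 331, 288 and 652 on hCG day 18, against 127, 271, 45.2 and 86.1 on hCG day 15. Its change was 1.69 ± 0.40 (SE), and hCG day 15 replicate 2 alone came near the day 18 arrays. All 3 OMD probe sets lay above 0. F11R, the junctional adhesion molecule A of tight junctions, had signals of 674, 558, 709.8 and 771 on hCG day 18 and 497, 202, 228 and 338 on hCG day 15 (change 1.14, all 4 probe sets above 0). PLAC8, a small cysteine-rich protein of leukocytes and placenta, had 494, 253, 226 and 251 on hCG day 18 and 189.6, 128, 123 and 111 on hCG day 15 (change 1.02). XKRX, a membrane protein of the XK family, differed by 1.03, but its other probe sets differed by 0.19 and -0.38, the last lower without overlap. The adjusted p-values of these 4 genes in limma lay between 0.332 and 0.488.

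The lower genes with the largest changes at that signal and without overlap included a hormone, a receptor, signal regulators and division genes. PTHLH encodes the parathyroid hormone-related protein. Its signals were 85.6, 69.5, 91.8 and 83.1 on hCG day 18, against 299.8, 447, 227 and 188 on hCG day 15. The change was -1.57 ± 0.39 (SE), the day 18 arrays were tightly grouped, and all 3 probe sets lay below 0. RGS4, which shortens signalling by G protein subunits, had 143, 106, 62.6 and 113 on hCG day 18 and 455, 181, 393 and 176 on hCG day 15 (change -1.30). RCAN1, a regulator of the phosphatase calcineurin, had 340.1, 458, 749 and 386 on hCG day 18 and 761, 958, 1422 and 908 on hCG day 15 (change -1.07), and 1 of its 3 probe sets lay above 0. For RGS4 the step before ran the other way, with a change of 0.81 between hCG day 12 and hCG day 15, and the difference between the steps was -2.11 (limma adjusted p = 1). PDLIM3, a protein of actin-based contractile structures, had 406, 389.9, 697 and 373 on hCG day 18 and 752, 1068, 1052 and 891 on hCG day 15. Its change was -1.02, and against untreated day 10 it fell by 1.81 on hCG day 18 (limma adjusted p = 9.31e-05). IL13RA2, the decoy receptor for interleukin 13, had 67.5, 73.7, 110.4 and 75.0 on hCG day 18 and 142, 179, 185 and 206 on hCG day 15 (no overlap). PDZK1, a scaffold protein of transporters and lipoprotein receptors, differed by -1.33, and EPYC, another leucine-rich proteoglycan, by -0.96. SEPTIN6, a filament-forming GTPase, differed by -1.32 but by -0.84 without hCG day 18 replicate 4, and its other 3 probe sets differed by -0.29 to -0.12. IRF8, a transcription factor of myeloid and B cells, has probe sets that disagree: the one named here differed by -0.99, and the other 2 by 0.77, in the brightest, and 0.70.

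**Figure D1:**
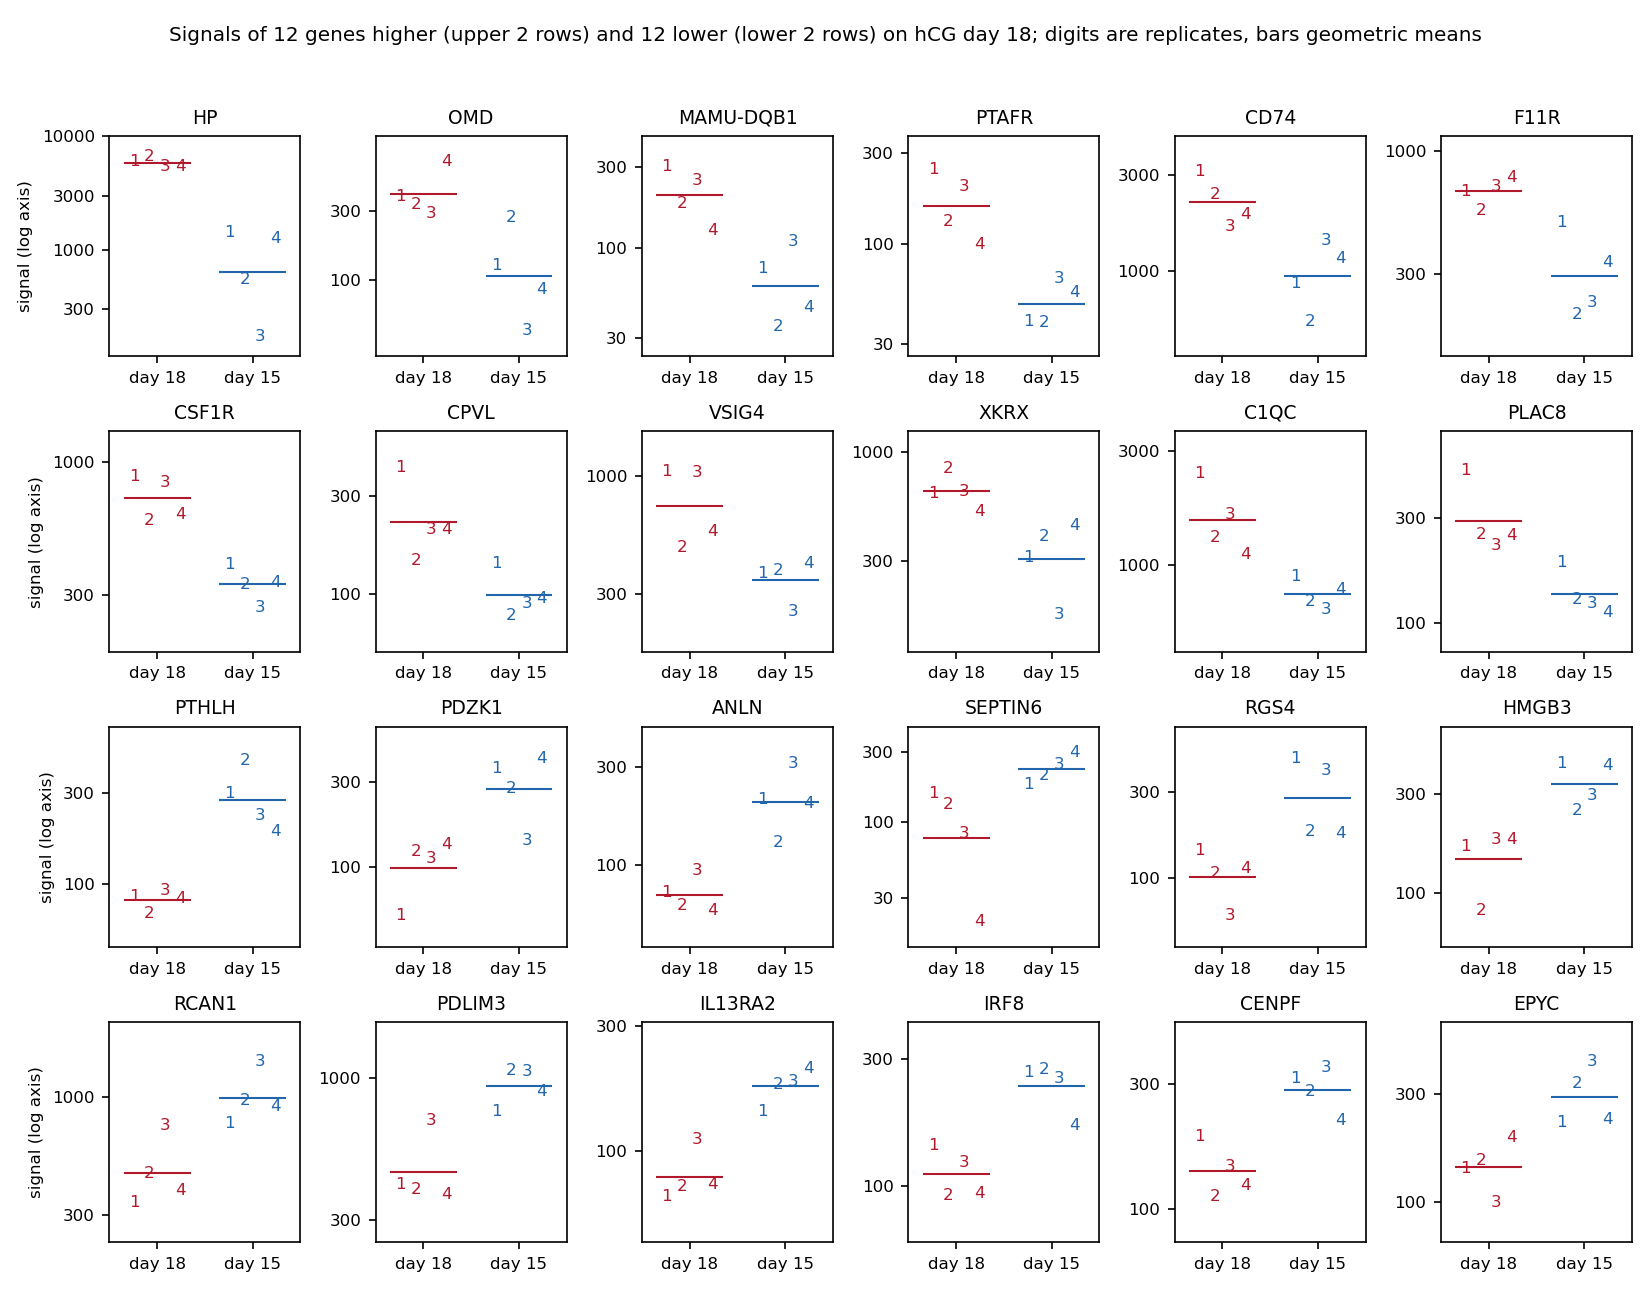
Signals of the 12 genes higher (upper rows) and the 12 lower (lower rows) on hCG day 18 with the largest changes, on log axes in arbitrary units. Each panel has hCG day 18 left of hCG day 15, a replicate number at the signal of each array and a bar at the geometric mean. HP shows the widest gap, with its lowest day 18 array at 5409 and its highest day 15 array at 1407.

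Macrophage and monocyte genes lay higher on hCG day 18 almost throughout. Of 51 listed genes 41 were measured, 37 of them above 0 and 4 below, with a median change of 0.62 beside 0.00 over all genes. At an unadjusted p under 0.05 stood 22 higher and 1 lower, beside 4.05% and 4.4% of all genes. In 7 the arrays did not overlap, all higher, beside 1.73% of all genes. Among the measured macrophage markers, CSF1R differed by 1.09, C1QB by 0.90 and CD14 by 0.71. The markers CD68 and AIF1 differed less, by 0.24 ± 0.24 and 0.45 ± 0.37 (SE). Of these markers, CSF1R alone had arrays without overlap. Leaving out each array in turn gave 0.10 to 0.37 for CD68 and 0.23 to 0.76 for AIF1. The tissue was measured whole, so more cells of a type and more RNA per cell cannot be told apart. Genes shared by all leukocytes, given further on, lay mostly higher as well. T and natural killer cell genes were mixed, while 13 of 16 B and plasma cell genes lay above 0. Neutrophil and mast cell genes had a median of 0.03, with 8 above 0 and 8 below. The part of these cells in the macrophage values was not tested.

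CSF1R, the receptor for the growth factor on which macrophages depend, had signals of 882, 589, 829.6 and 624 on hCG day 18, against 397, 330.4, 268 and 337 on hCG day 15. Every day 18 array exceeded every day 15 array by a wide margin, for a change of 1.09 ± 0.23 (SE; limma unadjusted p = 0.000163, adjusted p = 0.322). SIGLEC1, a sialic acid-binding adhesion receptor of tissue macrophages, had 634, 514, 493 and 377 on hCG day 18, against 211, 276, 214 and 320.4 on hCG day 15 (change 0.94). VSIG4, a complement receptor of resident macrophages, had 1049, 484, 1039 and 571 on hCG day 18, against 372, 384, 251 and 409 on hCG day 15 (change 1.06). In VSIG4 replicates 1 and 3 of hCG day 18 stood highest and replicates 2 and 4 nearer to day 15. The 3 chains of C1q, the first component of the classical complement pathway, lay on the same side in their brightest probe sets. C1QC had 2421, 1310.2, 1626 and 1112 on hCG day 18, against 896, 703, 653 and 793 on hCG day 15 (change 1.02). C1QA differed by 0.81 without overlap and C1QB by 0.90 with overlap, while a dimmer second probe set of C1QA differed by -0.44. TYROBP, the adaptor that passes on signals from TREM2 and related receptors, had 2153, 1172, 1757 and 993 on hCG day 18, against 878, 885, 659 and 782 on hCG day 15 (change 0.85). TREM2 itself differed by 0.89, with overlapping arrays. Lysozyme (LYZ), a bactericidal enzyme of phagocytes, had 5999, 1634, 3319.7 and 2904 on hCG day 18, against 1435, 2069, 861 and 1552 on hCG day 15 (change 1.13). The largest change in the list, 1.74, belonged to chitotriosidase (CHIT1), a chitin-splitting enzyme of activated macrophages. CHIT1 had 1252, 951, 6133 and 363 on hCG day 18, against 305, 506, 414 and 302 on hCG day 15, so hCG day 18 replicate 3 stood far above the rest and replicate 4 within the day 15 range.

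PTAFR, the receptor for platelet-activating factor, and CPVL, a carboxypeptidase of macrophages, were not in the macrophage list. Each had a probe set among the 12 largest higher changes without overlap. PTAFR had 247, 131, 201 and 99.7 on hCG day 18, against 39.1, 38.6, 66.1 and 55.4 on hCG day 15, a change of 1.45 ± 0.41 (SE), with all 4 of its probe sets above 0. CPVL had 411, 146, 205 and 206 on hCG day 18, against 141, 78.6, 89.5 and 94.9 on hCG day 15 (change 1.07), but its brightest probe set differed by -0.14. The 4 macrophage genes below 0 were CTSD (-0.40), LILRB4 (-0.23), MARCO and PLA2G7, the last 2 close to 0. CTSD, the lysosomal protease cathepsin D, was the 1 member lower at an unadjusted p under 0.05.

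The list's mean level, set to 0 at the average of all 20 arrays, was 0.96, 0.23, 0.86 and 0.24 on hCG day 18 and 0.05, 0.12, -0.17 and -0.09 on hCG day 15. The groups did not overlap, but hCG day 18 replicates 1 and 3 stood well above replicates 2 and 4. Replicate 1 of hCG day 18 gave the highest signal of the 8 arrays in 24 of the 41 genes, and replicate 3 in 9. Leaving out each array in turn kept the median between 0.44 and 0.78. The count of genes higher at an unadjusted p under 0.05 dropped to 8 without hCG day 18 replicate 1 and to 13 without hCG day 18 replicate 3. Without hCG day 15 replicate 2, the array that stood apart, the median was 0.68 and 20 genes stood higher. The level averaged 0.57 ± 0.39 on hCG day 18 and -0.07 ± 0.39 on untreated day 10 (SD, n = 4 each), so the spread was as wide among the untreated arrays. Against untreated day 10 the median change of the 41 genes was 0.60 on hCG day 18 and 0.07 on hCG day 15. There 6 of the 41 rose on hCG day 18 at an adjusted p under 0.05 (limma; 2.78% of all genes rose) and 0 on hCG day 15 (0.969% of all genes rose). CSF1R was one of these, with a change of 1.06 (adjusted p = 0.0121), and SIGLEC1 another, with 1.11 (adjusted p = 0.00556).

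**Figure D2:**
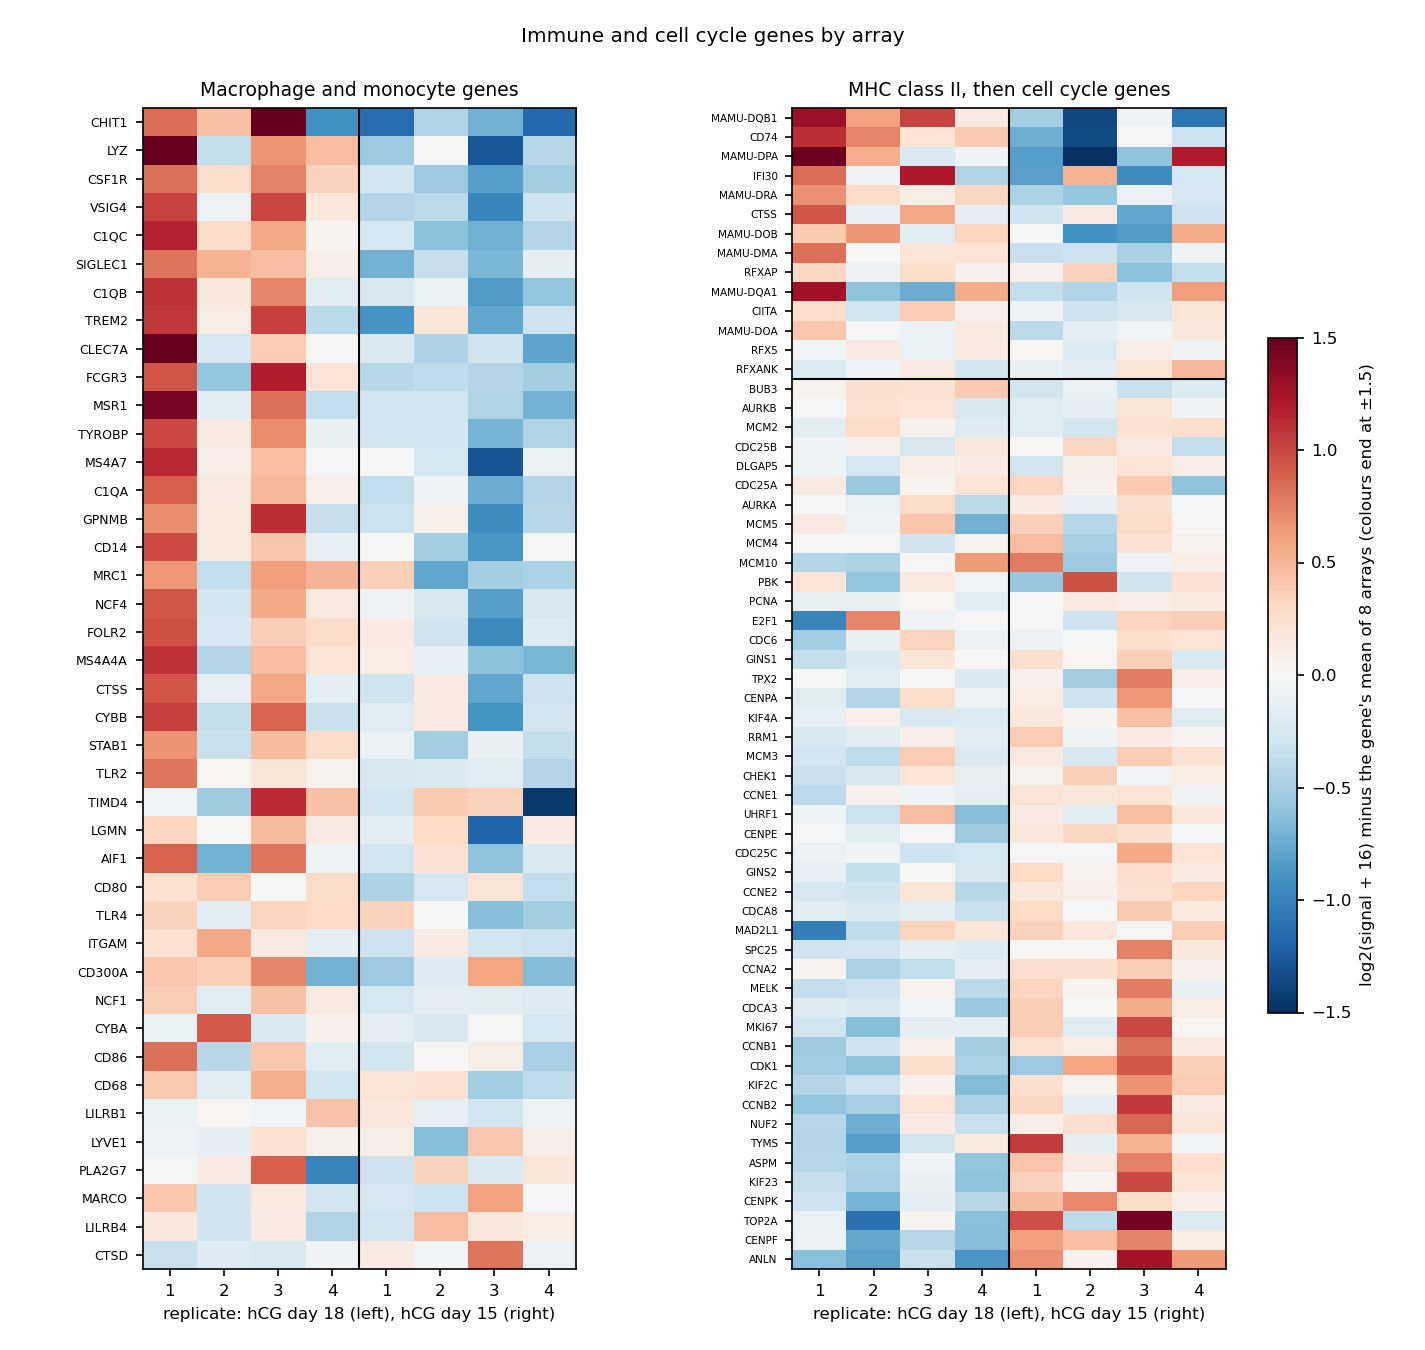
Each gene's log2(signal + 16) on 8 arrays minus its mean over them, red above and blue below, with hCG day 18 left of hCG day 15. The left panel holds the 41 macrophage and monocyte genes, and the right panel the 14 MHC class II genes above the line and the 46 cell cycle genes beneath it. Replicates 1 and 3 of hCG day 18 are the reddest columns on the left, and hCG day 15 replicate 3 is the reddest column among cell cycle genes.

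Genes of antigen presentation by MHC class II also lay higher on hCG day 18 in nearly all cases. Of 18 listed genes 14 were measured, 13 above 0 and 1, RFXANK (-0.20), below, with a median change of 0.61. In 4 genes the arrays did not overlap, all higher, beside 1.73% of all genes. CD74 had signals of 3127, 2401, 1661 and 1900.3 on hCG day 18, against 859, 559.7, 1409.9 and 1149 on hCG day 15, a change of 1.22 ± 0.33 (SE; 95% interval 0.53 to 1.90). Its highest day 15 array lay just under its lowest day 18 array. MAMU-DRA, the alpha chain of the DR molecule, had 6262, 4715, 4195 and 4833 on hCG day 18, against 2807, 2598, 3671 and 3277 on hCG day 15 (change 0.69), and all 3 of its probe sets were higher without overlap. MAMU-DQB1, the beta chain of DQ, had 303, 182, 249 and 128 on hCG day 18, against 76.0, 35.05, 109.9 and 45.3 on hCG day 15 (change 1.51). MAMU-DMA, a chain of the molecule that exchanges peptides in the loading compartment, had 1471, 829, 936 and 953 on hCG day 18, against 649, 664, 585 and 779 on hCG day 15 (change 0.61). Class II loci resemble each other and vary between animals, so the assignment of signal to a single locus is uncertain.

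Other members of the class II route gave values of the same sign with overlap. Cathepsin S (CTSS), which trims the invariant chain, differed by 0.62, with all 4 probe sets above 0. The thiol reductase IFI30 differed by 0.75, MAMU-DOB by 0.61 and MAMU-DPA by 0.86. The master regulator CIITA differed by 0.21 ± 0.16 (SE). The list's mean level was 0.86, 0.30, 0.37 and 0.27 on hCG day 18 and -0.17, -0.27, -0.16 and 0.21 on hCG day 15. Without hCG day 18 replicate 1, the highest array in 8 of the 14 genes, the median was 0.42. Without hCG day 15 replicate 2, the lowest array in 7 of them, it was 0.48 and 5 genes did not overlap. At an unadjusted p under 0.05 stood 4 genes, all higher, beside 4.05% of all genes. When each array was left out in turn, between 3 and 6 genes did. Against untreated day 10, 0 of the 14 genes passed on either day in limma, and their median change was 0.53 on hCG day 18 and -0.10 on hCG day 15.

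MHC class I genes and interferon-induced genes had medians nearer to 0. The class I list had 12 of 17 genes above 0, a median of 0.10 and 0 genes at an unadjusted p under 0.05. MAMU-E differed by 0.64 ± 0.47 (SE) and the chaperone calnexin (CANX) by 0.27. Of 30 interferon-induced genes 23 lay above 0, with a median of 0.20. At an unadjusted p under 0.05, 3 were higher, beside 4.05% of all genes. The median was 0.11 without hCG day 18 replicate 1, which was the highest of the 8 arrays in 15 of the 30 genes, 0.12 without hCG day 15 replicate 4 and 0.31 without hCG day 18 replicate 3. CXCL9, a chemokine that interferon gamma induces and that draws T cells, had 311, 18.7, 52.6 and 3.41 on hCG day 18, against 4.66, 4.55, 2.12 and 7.24 on hCG day 15. Replicates 1 and 3 of hCG day 18 stood above the rest, and the change of 1.60 became 0.80 without replicate 1. The related CXCL10 differed by 0.86 (0.50 without replicate 1) and EPSTI1 by 0.70, both with overlap. BST2, the antiviral protein tetherin, was the 1 interferon-induced gene without overlap, at 7504, 9368, 7382 and 8275 on hCG day 18, against 6741, 6845, 6683 and 7016 on hCG day 15 (change 0.25).

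Genes shared by all leukocytes lay higher in 25 of 28, with a median change of 0.47. In this list 11 genes had an unadjusted p under 0.05, all higher, beside 4.05% of all genes. The arrays of 2 did not overlap, also higher, beside 1.73% of all genes. SELPLG, the P-selectin ligand, had 139.9, 146, 122 and 194 on hCG day 18, against 119, 80.1, 67.1 and 96.2 on hCG day 15 (change 0.65). EVI2B, a leukocyte membrane protein, had 285, 130.3, 195 and 161 on hCG day 18, against 126, 113, 83.3 and 98.6 on hCG day 15 (change 0.74). CD37, a leukocyte tetraspanin, differed by 0.98 and CD48, an adhesion ligand, by 0.76, both with overlap. The 3 genes below 0 were PTPN7 (-0.25), PIK3CD (-0.14) and TRAF3IP3 (-0.08). The list's level was 0.76, 0.19, 0.60 and 0.05 on hCG day 18 and -0.05, 0.11, -0.09 and -0.02 on hCG day 15, so replicate 4 of hCG day 18 lay within the day 15 range. Of the 11 genes at an unadjusted p under 0.05, 6 were counted without hCG day 18 replicate 1, where the median was 0.30, and 6 without hCG day 18 replicate 3.

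Lymphocyte genes gave smaller values, which were mixed in the T and natural killer cell list. Of 38 T and natural killer cell genes 28 lay above 0, with a median of 0.17. Of the 38, 19 had a mean signal of at least 50, and the median was 0.07 when 64 instead of 16 was added to the signal. At an unadjusted p under 0.05 stood 5 higher and 2 lower, beside 4.05% and 4.4% of all genes. CD4, which macrophages also carry, was the 1 gene of the list without overlap, at 253, 133, 232 and 129.8 on hCG day 18, against 86.0, 79.9, 129 and 74.0 on hCG day 15 (change 0.88). IL2RG, the shared gamma chain of interleukin receptors, differed by 0.58, granzyme A (GZMA) by 0.46, CTSW by 0.38 and CCL5 by 0.49, but CTSW by 0.24 and CCL5 by 0.25 without hCG day 18 replicate 1. The T cell transcription factors TCF7 and FOXP3 had values of -0.71 and -0.46, both dim, and the other 2 probe sets of TCF7, dimmer still, differed by 0.53 and 0.07. Granulysin (GNLY), a protein of cytotoxic granules, differed by -1.40 ± 0.77 (SE). B and plasma cell genes had a median of 0.20, with 13 of 16 above 0. Only 7 of them had a mean signal of at least 50. The mean level of this list lay between 0.15 and 0.36 on hCG day 18. It lay between -0.08 and 0.08 on hCG day 15 and between -0.15 and 0.06 on untreated day 10. The median was 0.10 when 64 instead of 16 was added to the signal, and 0.36 when 1 was added. BLNK, an adaptor of the B cell receptor that macrophages also use, differed by 0.92 and CD22 by 0.56. Neutrophil and mast cell genes had a median of 0.03 and 0 of 16 at an unadjusted p under 0.05. Most of them were dim, and the 4 with a mean signal of at least 50 had a median of 0.30.

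Of 44 chemokines, cytokines and their receptors 32 lay above 0, with a median of 0.17. At an unadjusted p under 0.05, 8 were higher, beside 4.05% of all genes. The interleukin 6 receptor IL6R had 329, 210.4, 275 and 229.9 on hCG day 18, against 209, 154, 138 and 163 on hCG day 15 (change 0.60 without overlap). Of 21 complement and coagulation genes 18 lay above 0, with a median of 0.27. Factor B (CFB), a protease of the alternative complement pathway, had 815, 711, 779 and 638 on hCG day 18, against 467, 496, 461 and 538 on hCG day 15 (change 0.57). Of the 3 probe sets of CFB, 1 lay below 0. Factor D (CFD) differed by 0.70 and properdin (CFP) by 0.65. Tissue factor (F3), which starts blood coagulation, ran the other way, at -1.11, with 101, 68.2, 96.0 and 106 on hCG day 18, against 224, 672, 136 and 101 on hCG day 15, where replicate 2 was far above the rest. Without that array the change was -0.59, and the median of the list was 0.18.

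Lysosome and lipid-handling genes gave a few of the steadier differences. PLTP, the phospholipid transfer protein, had 476, 420.4, 635 and 439.5 on hCG day 18, against 299, 264, 306 and 260.2 on hCG day 15. The change was 0.76 ± 0.15 (SE; limma unadjusted p = 7.83e-05, adjusted p = 0.271). ACADM, which starts the mitochondrial breakdown of medium-chain fatty acids, had 3453, 3802, 4028 and 3601 on hCG day 18, against 5352, 4988, 5327 and 4567 on hCG day 15 (change -0.44). The scavenger receptor CD36 differed by 0.92 with overlap. In the lysosome list 5 of 36 genes were higher without overlap and 1 lower, beside 1.73% and 2.59% of all genes. ASAH1, acid ceramidase, had 8282, 9641, 9601 and 8338 on hCG day 18, against 5354, 7287, 7018 and 6951 on hCG day 15 (change 0.44). NPC2, which moves cholesterol out of lysosomes, had 6423, 7473, 6828 and 6249 on hCG day 18, against 4855, 6150.1, 5412 and 4468 on hCG day 15 (change 0.38). The other 3 higher ones were NEU1 (0.37), CTSZ (0.49) and LAMP2 (0.27), and the lower one was ATG3 (-0.20), and these 4 were picked out after their values were seen. The median of the lysosome list was 0.11, with 24 genes above 0 and 12 below. Cholesterol synthesis and uptake genes had a median of 0.18, of which FDFT1, squalene synthase, differed by 0.44 (0.28 without hCG day 15 replicate 2). That median moved with single arrays: it was 0.05 without hCG day 18 replicate 4, 0.05 without hCG day 15 replicate 3, 0.10 without hCG day 15 replicate 2 and 0.29 without hCG day 15 replicate 4.

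Cell cycle genes lay almost all on the other side. Of 64 listed genes 46 were measured, 44 below 0 and 2 above, with a median change of -0.32 beside 0.00 over all genes. At an unadjusted p under 0.05 stood 21 lower and 1 higher (4.4% and 4.05% of all genes), and in 12 lower and 1 higher the arrays did not overlap (2.59% and 1.73%). Anillin (ANLN), which organises the ring that pinches dividing cells apart, had 73.6, 63.5, 94.3 and 59.9 on hCG day 18, against 207, 129, 313 and 200 on hCG day 15. Its change of -1.32 ± 0.24 (SE) had an unadjusted p of 2.86e-05 and an adjusted p of 0.271 in limma, and 1 of its 4 probe sets lay above 0, at 0.28. CENPF, a protein of the kinetochore, had 188, 111, 145 and 123 on hCG day 18, against 316, 281, 347 and 219 on hCG day 15 (change -0.96, both probe sets below 0). CENPK, also of the kinetochore, differed by -0.79, and the motor proteins KIF23 and KIF2C by -0.78 and -0.67. ASPM, a spindle pole protein, differed by -0.77, NUF2 by -0.69 and CDCA8 by -0.42.

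Outside the list, the chromatin protein HMGB3 and the ubiquitin-conjugating enzyme UBE2S, which works with the anaphase-promoting complex, had like values. HMGB3 had 322, 252, 439 and 469 on hCG day 18, against 842, 597, 714 and 744 on hCG day 15 in its probe set with the smallest p (change -0.97), and all 4 of its probe sets lay below 0. UBE2S had 159, 110.1, 136 and 171 on hCG day 18, against 192, 234, 279 and 258 on hCG day 15 (change -0.69), with 1 of 3 probe sets above 0. The exceptions in the list were AURKB (0.08) and BUB3, a spindle checkpoint protein. BUB3 had 5388, 6106, 6059 and 6824 on hCG day 18, against 4293, 4819.7, 4093 and 4511 on hCG day 15, a change of 0.46 without overlap.

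The mean level of the cell cycle list was -0.64, -0.68, -0.36 and -0.63 on hCG day 18 and -0.19, -0.37, 0.06 and -0.30 on hCG day 15. The lowest day 15 array, replicate 2, and the highest day 18 array, replicate 3, lay at nearly the same level. Replicate 3 of hCG day 15 was the highest of the 8 arrays in 24 of the 46 genes. Leaving out each array in turn kept the median between -0.41 and -0.28, with 14 to 24 genes lower at an unadjusted p under 0.05. Without hCG day 15 replicate 2 the median was -0.40 and 19 genes stood lower, and without hCG day 18 replicate 3 the arrays of 20 genes did not overlap. The step before had given the same sign, with a median change of -0.39 between hCG day 12 and hCG day 15. Against untreated day 10, 31 of the 46 genes fell on hCG day 18 and 13 on hCG day 15 (limma adjusted p under 0.05; 3.31% and 0.998% of all genes), and BUB3 alone rose on both days. ANLN fell by 2.67 on hCG day 18 (adjusted p = 6.58e-06) and by 1.35 on hCG day 15 (adjusted p = 0.00657) against untreated day 10. The group means of the list were 0.40 on untreated day 10, 0.20 on hCG day 10, 0.18 on hCG day 12, -0.20 on hCG day 15 and -0.58 on hCG day 18. Of the whole series, hCG day 18 held the lowest group mean of this list and the highest of the macrophage list. In the macrophage list it overlapped untreated day 10, whose highest array reached 0.30 while the lowest hCG day 18 array lay at 0.23.

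**Figure D3:**
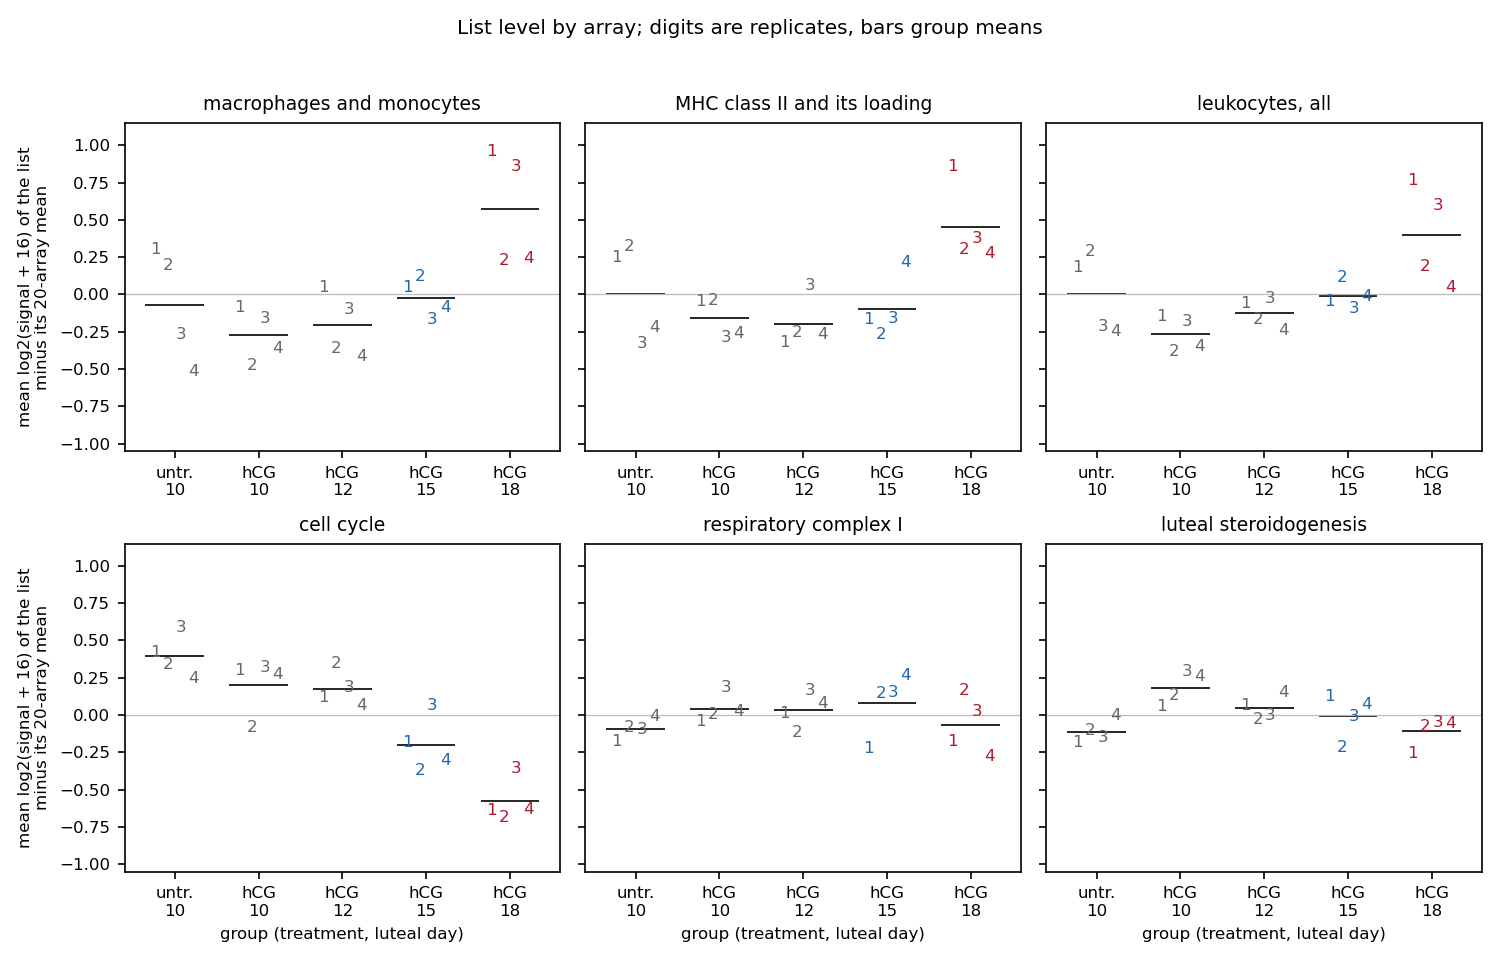
Mean level of gene lists on each array, as log2(signal + 16) minus the mean of all 20 arrays, with replicate numbers at the arrays and bars at the group means, from untreated day 10 through hCG days 10, 12, 15 and 18. The cell cycle mean is 0.40 on untreated day 10 and -0.58 on hCG day 18, and the macrophage mean is 0.57 on hCG day 18, with replicates 1 and 3 above replicates 2 and 4.

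Respiratory chain genes lay slightly lower on hCG day 18 in most complexes. Complex I, the entry point for electrons from NADH, had 25 of 38 genes measured, 22 below 0 and 3 above, with a median change of -0.13. At an unadjusted p under 0.05 stood 7 lower and 1 higher, beside 4.4% and 4.05% of all genes. In 1 gene (4% of the list) the arrays did not overlap, near the 4.32% of all genes. NDUFA6 was that gene, at 2364, 3165, 2888 and 2485 on hCG day 18, against 3408, 3402, 3297 and 3310.4 on hCG day 15 (change -0.31). Its day 15 arrays were almost equal, and its day 18 arrays were spread below them, and all 5 of its probe sets lay below 0. NDUFV2, which carries an iron-sulphur cluster of the NADH-binding part, had 1695, 1991, 1958 and 1442 on hCG day 18, against 1880.1, 2455, 2682 and 2469.8 on hCG day 15 (change -0.42), but a second probe set differed by 0.77. NDUFS4, an assembly-stabilising subunit, differed by -0.43, NDUFV1 by -0.41 and NDUFA12 by -0.42. The 3 genes above 0 were NDUFA13 (0.36), NDUFA2 (0.18) and NDUFC1 (0.04).

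All 10 measured genes of complexes II and III lay below 0, with a median of -0.23, and the sign of all 10 was the same after quantile normalisation. Median-centring lowers every change by the same amount, so it could not turn these signs. UQCRQ, a small subunit of complex III, had 3834, 5446, 5111 and 4349 on hCG day 18, against 5518, 6588, 6744 and 5925 on hCG day 15, a change of -0.41 ± 0.13 (SE) without overlap. UQCRB differed by -0.41 and the Rieske iron-sulphur protein UQCRFS1 by -0.31, both with overlap. Of 6 complex IV genes 4 lay below 0 with a median of -0.03, and 0 had an unadjusted p under 0.05. Of 13 ATP synthase genes 11 lay below 0, with a median of -0.12. ATP5PD (-0.32) was the 1 gene at an unadjusted p under 0.05, beside 4.4% of all genes lower. Leaving out each array in turn gave medians between -0.32 and -0.13 for complexes II and III, the value nearest to 0 without hCG day 15 replicate 3. For ATP synthase they lay between -0.20 without hCG day 18 replicate 2 and -0.04 without hCG day 18 replicate 1.

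The complex I level did not separate the days: it was -0.18, 0.17, 0.03 and -0.28 on hCG day 18 and -0.22, 0.14, 0.15 and 0.26 on hCG day 15. Replicate 1 of hCG day 15 lay as low as the lower day 18 arrays. The count of 7 lower genes became 10 without that array, 2 without hCG day 18 replicate 1, 3 without hCG day 18 replicate 4, 4 without hCG day 15 replicate 2 and 3 without hCG day 15 replicate 4. The median lay between -0.23 and -0.07 under those removals. Against untreated day 10 the median of complex I was 0.01 on hCG day 18 and 0.23 on hCG day 15. There 1 of 25 genes, NDUFA13, rose on hCG day 18 (limma adjusted p = 0.0354) and 0 on hCG day 15.

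Neighbouring mitochondrial lists lay on the same side. Of 10 citric acid cycle genes 9 were below 0, with a median of -0.31. An unadjusted p under 0.05 was reached by 3, all lower, beside 4.4% of all genes. DLAT, of the pyruvate dehydrogenase complex that feeds the cycle, had 449.8, 511, 471 and 458 on hCG day 18, against 507, 619, 668 and 808 on hCG day 15 (change -0.43). SUCLA2 and SUCLG2, the beta subunits of succinyl-CoA synthetase, both differed by -0.34, and citrate synthase (CS) was the 1 gene above 0, at 0.44 ± 0.26 (SE). Of 22 genes of the mitochondrial ribosome 20 lay below 0, with a median of -0.17. That threshold was passed by 5, all lower, beside 4.4% of all genes. MRPL9 had 1006, 1156, 1179 and 1154 on hCG day 18, against 1573, 1355, 1926 and 1495 on hCG day 15 (change -0.48 without overlap). MRPL51 had 1429, 1902, 1831 and 1792 on hCG day 18, against 2360, 2941, 2009.6 and 2107 on hCG day 15 (change -0.43), with 1 of 3 probe sets above 0. When each array was left out, the citric acid cycle median lay between -0.34 and -0.18 (without hCG day 15 replicate 3), and that of the mitochondrial ribosome between -0.26 (without hCG day 18 replicate 2) and -0.09 (without hCG day 15 replicate 4). The cytosolic ribosome lay near 0, with a median of 0.05 (-0.01 after median-centring) and 0 of 17 genes at an unadjusted p under 0.05. The proteasome had a median of -0.06.

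**Figure D4:**
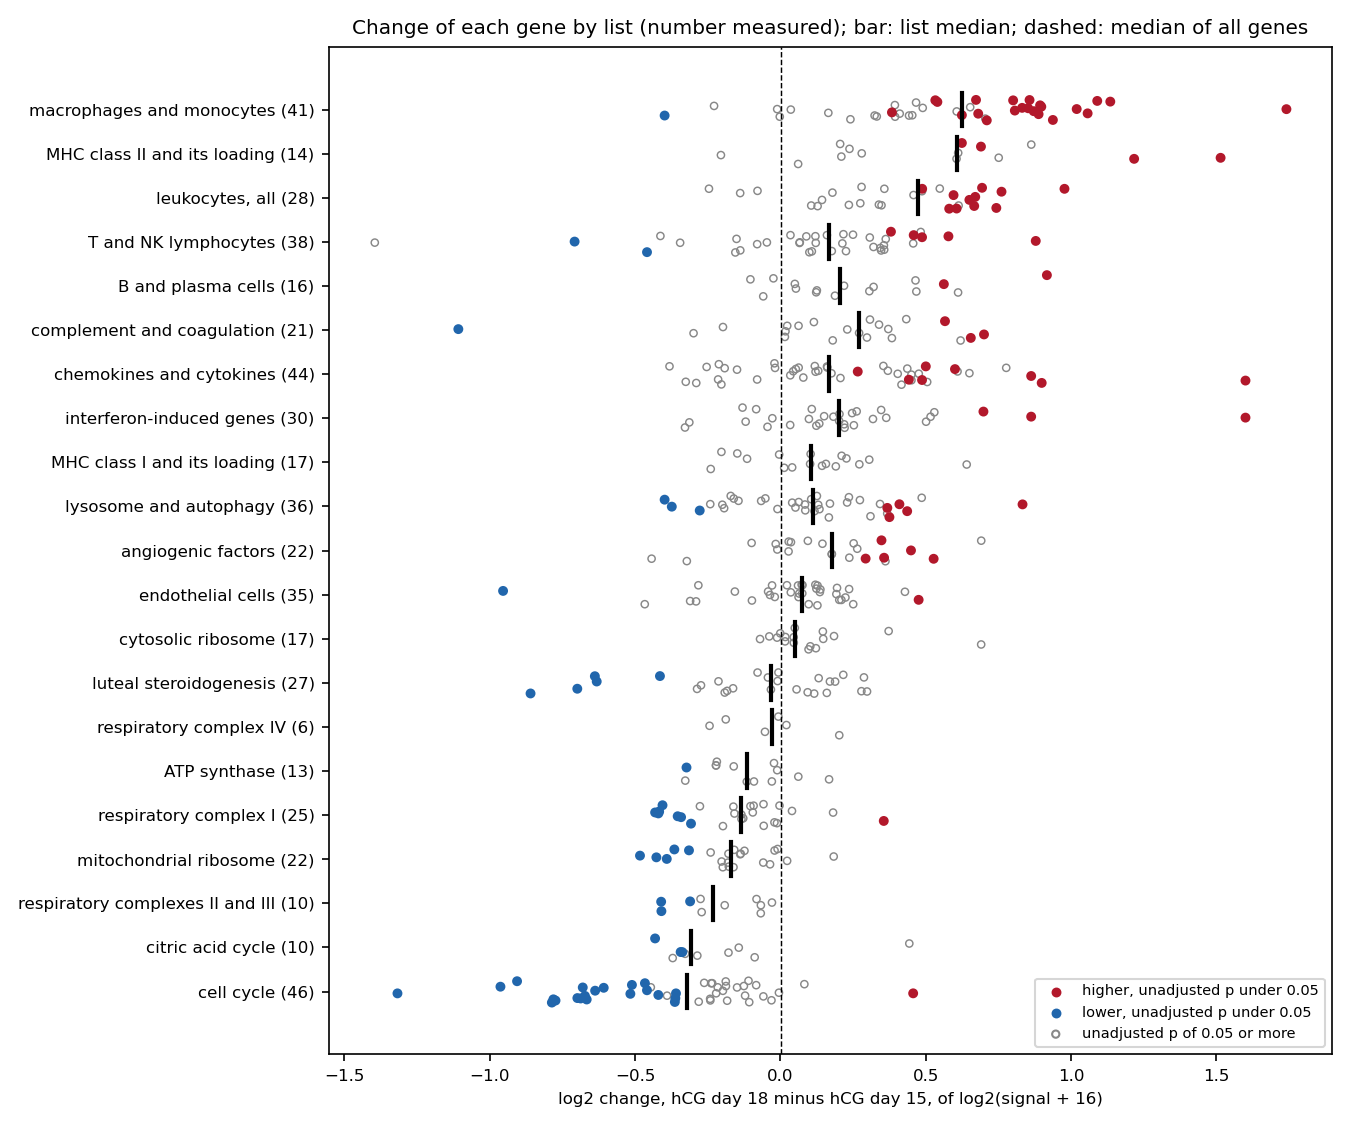
Log2 change of each gene, hCG day 18 minus hCG day 15, with 1 row per gene list, a point per gene (filled where the unadjusted p is under 0.05) and a bar at the list's median. Macrophage and MHC class II medians stand at 0.62 and 0.61, cell cycle at -0.32 and complex I at -0.13, against a median of 0.00 over all genes.

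Steroidogenic genes lay on both sides of 0, and 5 of them were lower at an unadjusted p under 0.05. Of 27 measured genes 11 lay above 0 and 16 below, with a median of -0.03. At that threshold 0 were higher, and over all genes 4.4% were lower and 4.05% higher. Without overlap stood 4 lower and 1 higher, beside 2.59% and 1.73% of all genes. HSD11B1, which turns cortisone into cortisol, had 2201, 2882, 2579 and 3113 on hCG day 18, against 4269, 3614, 4527 and 4240.1 on hCG day 15. The change was -0.63 ± 0.13 (SE), with an unadjusted p of 9.21e-05 and an adjusted p of 0.274 in limma. Against untreated day 10 it fell by 1.13 on hCG day 18 (adjusted p = 3.7e-05). HSD3B2, the enzyme that makes progesterone from pregnenolone, had 2372, 2824, 1742 and 2421 on hCG day 18, against 5075, 3422, 5830.5 and 3062 on hCG day 15 (change -0.86 ± 0.21, SE). Over the series HSD3B2 averaged 8320.3 ± 1213 on untreated day 10, 10323 ± 1529.6 on hCG day 10, 6507 ± 1402 on hCG day 12, 4347 ± 1321 on hCG day 15 and 2339.9 ± 447 on hCG day 18 (SD, 4 arrays each). It fell by 1.83 against untreated day 10 on hCG day 18 (limma adjusted p = 4.44e-05), and the change on hCG day 15 was -0.97 (adjusted p = 0.0243).

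FDXR had 704, 762, 1258 and 912 on hCG day 18, against 1435, 1513, 1346 and 1270.2 on hCG day 15 (change -0.64, with a second probe set at -0.37). Its electron acceptor FDX1 ran the other way by a small amount, with 12186, 14101, 13017 and 14519 on hCG day 18, against 11768, 11305, 12138 and 11928 on hCG day 15 (change 0.19 without overlap). MRAP, the accessory protein of the corticotropin receptor, had 1244, 1557, 1279 and 1333 on hCG day 18, against 1779.6, 1566, 1852 and 2043 on hCG day 15 (change -0.41). The nuclear receptor NR4A1 differed by -0.70 with overlap. STAR differed by 0.16 (95% interval -0.21 to 0.53), and this sign turned to -0.029 after quantile normalisation. The inhibin alpha subunit INHA differed by 0.12 and CYP17A1 by 0.30, both with intervals across 0. CYP19A1, aromatase, differed by 0.17 ± 0.26 (SE), and by -0.10 without hCG day 15 replicate 2. In the list of cyclic AMP and immediate early genes, through which gonadotropin acts, the median was 0.05 (-0.01 after median-centring). At an unadjusted p under 0.05 stood 3 of 45 higher and 3 lower, beside 4.05% and 4.4% of all genes. The higher ones were PDE4A (0.39), ADCY5 (0.61) and ADCY1 (0.43), and the lower ones RGS4, NR4A1 and RGS16 (-0.33). Of the 5 probe sets of PDE4A, 2 lay below 0. ADCY1 and ADCY5 make cyclic AMP and PDE4A breaks it down.

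**Figure D5:**
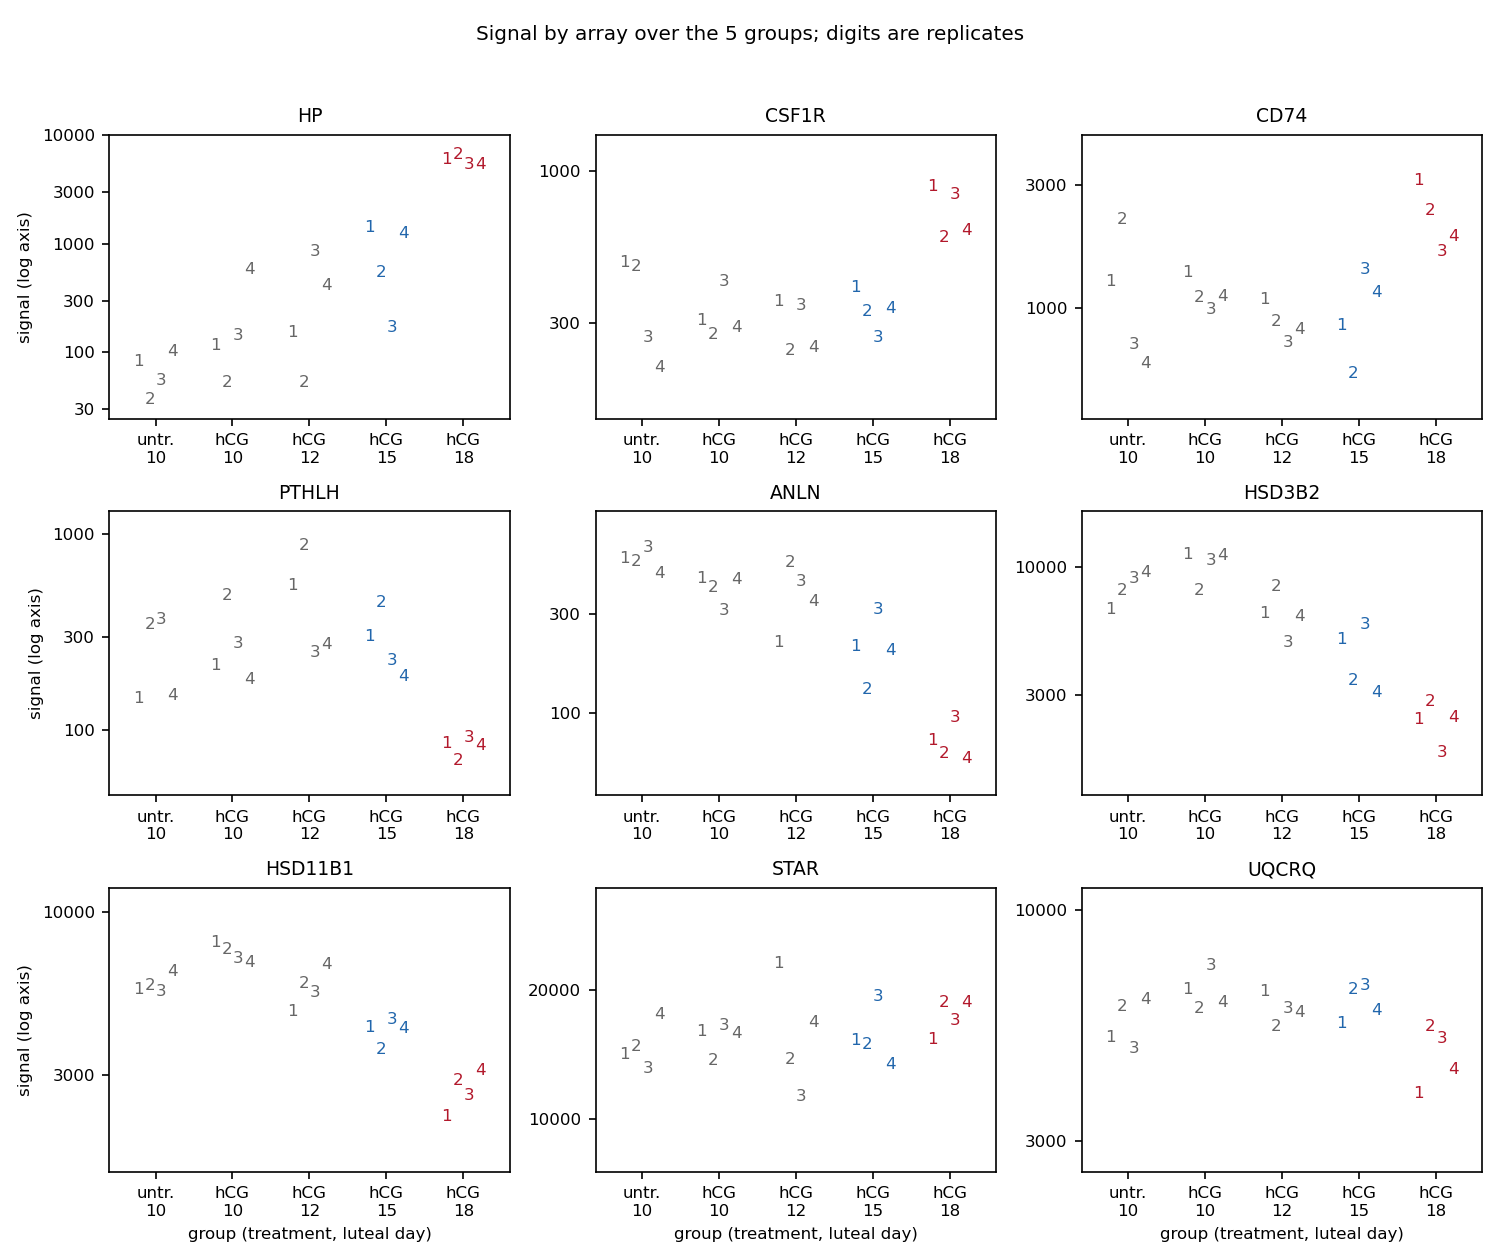
Signals of single genes on all 20 arrays in arbitrary units on log axes, from untreated day 10 through hCG days 10, 12, 15 and 18, with the replicate number at the signal of each array. The HP mean is 69.2 on untreated day 10 and 5862 on hCG day 18, and the HSD3B2 mean is 8320.3 on untreated day 10 and 2340 on hCG day 18.

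Vessel, muscle and matrix lists had medians close to 0, with a few members apart from it. Endothelial genes had a median of 0.08 over 35 genes. VCAM1 (0.48) was higher and SELE (-0.95) lower at an unadjusted p under 0.05, beside 4.05% and 4.4% of all genes. Both are adhesion molecules for leukocytes, and SELE was dim, with no signal above 42.5. Smooth muscle genes had a median of 0.01 (-0.06 after median-centring). At an unadjusted p under 0.05, 3 of 17 were lower, beside 4.4% of all genes. ACTG2, the smooth muscle gamma actin, had 220.2, 249, 251 and 266 on hCG day 18, against 518, 318, 418 and 625 on hCG day 15 (change -0.85 without overlap), and its other probe sets differed by -0.49 and -0.02. CNN1, calponin, differed by -0.48. Matrix genes had a median of 0.04 (-0.03 after median-centring). At an unadjusted p under 0.05, 3 of 41 were lower, beside 4.4% of all genes. These were LAMB1 (-0.56), VCAN (-0.83) and FN1 (-0.48), which encode a laminin chain, versican and fibronectin. LAMB1 had 742, 738, 577 and 613 on hCG day 18, against 889, 997, 1205 and 889.9 on hCG day 15. Lumican (LUM) was high on 1 array only, with 37.7, 33.6, 23.6 and 13.6 on hCG day 18, against 27.6, 1657, 101 and 47.9 on hCG day 15.

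Among metalloproteinases and their inhibitors, TIMP2, which inhibits and also helps to activate MMP2, had 1197, 1383, 961 and 1186 on hCG day 18, against 809.7, 738, 878 and 735 on hCG day 15 (change 0.56). MMP2, gelatinase A, differed by 0.76 with a dimmer probe set at -0.49, and ADAM12 by -0.33 without overlap. Of 22 angiogenic factors 17 lay above 0, with a median of 0.18. Without overlap 3 were higher, beside 1.73% of all genes. These were ANGPTL2 (0.35), ENPP2 (0.36), which makes the lipid signal lysophosphatidic acid, and PDGFC (0.29). Of the other probe sets of PDGFC, one was also higher without overlap (0.63) and a dim one lower without overlap (-0.51). Without hCG day 15 replicate 3 the median of the list was 0.11. HK2, the hexokinase that traps glucose, had 432, 602, 415 and 579.9 on hCG day 18, against 1047, 650.5, 732 and 921 on hCG day 15 (change -0.70). The rest of the glycolysis list lay near 0, with a median of -0.03 over 21 genes. In the apoptosis list the cell cycle inhibitor CDKN1A differed by 0.54, the death-promoting BCL2L11 by 0.38 (0.20 without hCG day 18 replicate 1) and the survival factor MCL1 by 0.41, with a median of 0.06.

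The step was also set against the one before it, hCG day 15 over hCG day 12, by a contrast of the differences between the 2 steps. In limma 0 of 52707 probe sets passed an adjusted p of 0.05, with a smallest adjusted p of 0.946, and 1660 (3.15%) had an unadjusted p under 0.05. Among genes with the smallest p in that contrast were PLTP, with a change of -0.26 in the earlier step and 0.76 in the later one, and ACYP2, an acylphosphatase, with 0.68 and -0.56. ACYP2 had 1411, 1785, 1573 and 1817 on hCG day 18, against 2186, 3045, 2064 and 2510 on hCG day 15. FIZ1, a zinc finger protein that binds a receptor tyrosine kinase, had the smallest unadjusted p of any named gene in the later step (1.3e-05), at 56.0, 34.8, 40.5 and 33.2 on hCG day 18, against 14.5, 9.65, 13.5 and 12.4 on hCG day 15. Its change of 0.99 lay on a dim probe set, and its other probe sets differed by 0.24 and -0.019. LZIC differed by 0.65 and -0.70, and the dim genes ERAS, CILP2, SH2D3A and CCR6 completed the 8 named by this contrast. As both steps use the hCG day 15 arrays, a value that is off on hCG day 15 enters them with opposite signs.

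Several genes were picked because they differed from untreated day 10 on hCG day 18 and from hCG day 15 in the same direction. That shared direction follows from the choice, and both comparisons use the hCG day 18 arrays. HP, OMD, PTAFR, ANLN and HMGB3, given above, were among them and did not overlap. In the remaining ones the arrays of the 2 days overlapped. KANK4, which sits at cell adhesions, had 319.6, 1321, 1309 and 1198 on hCG day 18, against 479.8, 279, 254 and 419 on hCG day 15. Replicate 1 of hCG day 18 lay within the day 15 range and the other 3 far above it. The change was 1.35 with all arrays (limma adjusted p = 0.396) and 1.83 without hCG day 18 replicate 1 (adjusted p = 0.0399). TENM2, a teneurin of cell contacts, differed by 1.74, with 142, 325, 309 and 927 on hCG day 18, against 474, 26.1, 6.57 and 268 on hCG day 15. Its change was 0.99 without hCG day 15 replicate 3, the lowest array, and 2.47 without hCG day 15 replicate 1, the highest of that day. The sodium-calcium exchanger SLC24A3 differed by 1.18. On the lower side stood DEFB122 (-1.51), a beta-defensin, DUSP5 (-1.40), a phosphatase of the kinase ERK, USP38 (-1.28), a deubiquitinase, and TNNI3 (-1.16), a troponin. Without hCG day 15 replicate 2 the change was -0.94 for DUSP5 and -0.86 for TNNI3. The remaining genes among the smallest unadjusted p-values were VASP (-0.69), which promotes actin filament growth, WDR41 (-0.72) and the dim SPATA17 (-1.11), all without overlap. The other 5 probe sets of VASP differed by -0.23 to 0.09.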

How the data were processed

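RNA of 20 rhesus macaque corpora lutea was measured on Affymetrix rhesus arrays. The authors deposited intensity values on a linear scale, with 1 value for each probe set on each array. Per the submitters' processing notes they used GCOS, with the version and settings not given in the sources used here. All arrays share a 2% trimmed mean of about 200.01, a common scaling target. The number of arrays limits the precision, and detection calls, sequences and genome coordinates were not used here.

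From 52865 probe sets, 158 controls were left out. Of the 52707 tested, 24956 carry 1 gene symbol in the platform annotation (14132 genes), 361 several and 27390 none. Log2 values of the signal + 16 of all 20 arrays were fitted in limma 3.58.1 (R 4.3.3) with a mean per group and no covariate, with Benjamini-Hochberg adjustment over all probe sets and a threshold of 0.05. The limma steps were tested on simulated data. A gene in a list is represented by its probe set with the highest mean log2 value, and the 39 lists received counts and medians, not tests.

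By rule the text names up to 12 genes per direction with the largest change (mean signal at least 50, arrays without overlap), the 10 with the smallest p, and up to 4 members per list by p, or 8 in immune and respiratory lists. It also names cell type markers, and up to 4 genes per direction for the difference between the steps. Up to 6 per direction are named that passed against untreated day 10 with the same sign as the step. Members and lists were chosen with earlier results of these data known. Alternatives covered scaling, a dim-probe filter, the arrays fitted, variance models, a replicate block, pseudocounts of 1 and 64, 1 probe set per gene, and leaving out arrays. Figures were drawn with matplotlib 3.10.9.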

Additional observations from a re-analysis of the deposited data

Results flagged for a closer look

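Within the groups of 4, single arrays stood far from the other 3 in 8 of 310 gene groups tested and in 8 of 78 gene list groups tested, where chance alone gives about 1 in 20. On hCG day 18, PLAC8 was high on replicate 1 at 494.1, with the other 3 arrays between 226 and 252.7. The dimmer HMGB3 probe set was low on hCG day 18 replicate 2 at 82.47, with the others between 166.6 and 180.7. PDLIM3 was high on hCG day 18 replicate 3 at 697, with the others between 372.5 and 405.7. KANK4 was low on hCG day 18 replicate 1 at 319.6, with the others between 1198 and 1321, and USP38 was high on hCG day 18 replicate 4 at 1841, with the others between 859.1 and 975. BCL2L11 was high on hCG day 18 replicate 1 at 835.7, with the others between 483.4 and 527.1. MRPL9 was low on the same array at 1006, with the others between 1154 and 1179. On hCG day 15, ASAH1 was low on replicate 1 at 5354, with the others between 6951 and 7287.

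Among list levels, given relative to the mean of all 20 arrays, MHC class II was high on hCG day 18 replicate 1 at 0.8557, and steroidogenesis was low on that array at -0.2558. On hCG day 18 replicate 4, cholesterol synthesis and uptake was high at 0.5224 and the citric acid cycle low at -0.2807. The cell cycle level of hCG day 18 replicate 3, -0.359, was above those of the other 3. On hCG day 15, T and natural killer cell genes were high on replicate 3 at 0.3577, complement and coagulation genes high on replicate 1 at 0.2379, and angiogenic factors low on replicate 3 at -0.1611. The causes of these single-array values were not tested.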

How the results depend on the processing

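With limma, 0 probe sets passed the adjusted threshold under the 11 alternatives that leave out no single array, with a smallest adjusted p between 0.056 (without the 3 arrays of the series that lie apart on the third component) and 0.61 (8 arrays alone). Leaving out each array in turn gave 0 to 1 probe sets, the 1 being KANK4 (1.83, adjusted p 0.0399) without hCG day 18 replicate 1. The count of 3688 at an unadjusted p under 0.05 became 2097 in the upper 50% of probe sets by signal and 1238 with 1 probe set per gene refitted, where fewer were tested, and lay between 3424 and 3838 under the other alternatives and between 3038 and 3937 with each array left out. The 1936 without overlap became 1103 and 611 in those 2 reduced sets, 3690 without the 3 arrays apart, and 3073 to 3824 with each array left out, where fewer arrays must separate. Among 2931 values of named probe sets under 19 alternatives, 2925 kept their sign and side of the threshold and 5 turned their sign: STAR to -0.029 (quantile normalisation), CPVL to -0.14 and FIZ1 to -0.019 (1 probe set per gene), and CYP19A1 to -0.10 (without the 3 arrays apart, and without hCG day 15 replicate 2, the lowest of -0.10 to 0.34 when each array was left out). The cause was not tested, except that CPVL and FIZ1 are there represented by another probe set. Of 741 list medians, 18 moved by more than 1 SD between replicates. Beside those given above, leaving out 1 array gave medians of 0.13 to 0.27 for chemokines and cytokines and 0.14 to 0.26 for T and natural killer cells. It gave 0.07 to 0.17 for lysosome and autophagy, 0.06 to 0.15 for cholesterol efflux and lipid handling and 0.06 to 0.16 for MHC class I. Median-centring, which lowers all genes alike and leaves a list's distance from the median of all genes unchanged, gave lower medians. They were 0.10 for chemokines and cytokines and 0.05 for lysosome and autophagy. For cholesterol efflux and lipid handling it gave 0.058, and for MHC class I 0.04. Arrays with the same number in the 2 groups deviated together with r = 0.12, -0.03, -0.04 and -0.15, and 1 of 4 matched its own number best. With only 4 pairs, these values cannot tell whether equal numbers mark a shared animal or batch, and the labels do not say. With the replicate block 0 probe sets passed in limma and 3838 had an unadjusted p under 0.05.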

Other observations

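Further gene groups had medians close to 0, with single members apart. Of 36 genes of the inhibin, activin, bone morphogenetic protein and insulin-like growth factor families, 1 was higher and 1 lower at an unadjusted p under 0.05 in limma. That is 5.56% of the list, below the 8.45% of all genes. IGF1, insulin-like growth factor 1, had signals of 1361, 1264, 1125 and 1009 on hCG day 18, against 1396, 873, 681 and 644 on hCG day 15 (change 0.46). FSTL3, a secreted binder of activin, had 40.6, 68.9, 46.2 and 49.4 on hCG day 18, against 109, 94.0, 121 and 51.1 on hCG day 15 (change -0.67), and fell by 2.47 against untreated day 10 on hCG day 18 (adjusted p = 4.68e-05). Both had overlapping arrays.

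In the prostaglandin list of 13 genes, thromboxane synthase (TBXAS1), also an enzyme of macrophages, differed by 0.43 (0.24 without hCG day 18 replicate 1), and the phospholipase PLA2G2A by -0.53. CBR1, a carbonyl reductase that can convert prostaglandins, had 475, 483, 482 and 443 on hCG day 18, against 570.3, 615, 520.1 and 627 on hCG day 15 (change -0.30 without overlap). Among 28 antioxidant genes the glutathione synthesis gene GCLM differed by -0.29. The probe sets of the metallothionein MT1X disagreed: the brightest differed by -0.37, and the other 3 by 0.26 to 0.55. The 16 heat shock genes, read as a sign of tissue handling, had a median of -0.06, with HSPA4 (-0.41) alone at an unadjusted p under 0.05. HSPA4 has 6 probe sets, 3 above 0 and 3 below, and the brightest by mean signal over the 8 arrays differed by 0.25. Of 19 genes of endoplasmic reticulum stress and secretion 0 reached that threshold, and the median was -0.05. The 15 genes of epithelium and mesothelium had a median of 0.01 (-0.06 after median-centring). Among 18 genes of granulosa and theca cells HAS2, which makes hyaluronan, differed by -0.62. In the 10 genes of red cells and platelets beta globin (HBB) differed by 0.15 ± 0.41 (SE).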
